A study of Mus musculus with 6 samples.

Results

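Cells make cholesterol from acetyl-CoA in a long series of enzymatic steps: the mevalonate arm yields isoprenoid units, these are joined into squalene, and squalene is cyclised to lanosterol, which is trimmed to cholesterol. The genes of these steps are classical targets of SREBP2, a transcription factor that is held in the endoplasmic reticulum with its escort SCAP by INSIG proteins while sterols are plentiful, and is carried to the Golgi and cut free by proteases when sterols run low. In macrophages, which take up cholesterol with the cells and lipoproteins they engulf, this synthesis is balanced against uptake, storage and export. The gene set described here holds 29 listed genes: 19 enzymes, 6 genes of SREBP2 control and 4 genes of sterol transport and storage. A gene was measured where a probe set was annotated to that gene alone, and where there were several such probe sets, the one with the largest interquartile range over the arrays was used. By this rule 26 of the 29 genes were measured, among 19938 genes tested. Acat2, which encodes a cytosolic enzyme that joins acetyl-CoA units, and Soat1, which encodes an enzyme that esterifies cholesterol for storage, are not listed in the annotation used here, and Mbtps2, which encodes one of the proteases that release SREBP2, was listed only on a probe set shared with another gene.

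The values come from RAW264.7, a mouse macrophage-like cell line, and 2 groups of 3 arrays each were compared. The miR-342-3p group was transfected with a mimic, which is a synthetic copy of the mature microRNA, and the control group with a miR-negative control mimic. Total RNA was isolated 18 h after transfection and 150 ng of it was labelled for Affymetrix whole-transcript arrays. All cells were of this 1 line, the microRNA was supplied from outside, and the study describes the replicates as independent experiments.

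The mature sequence of the transfected microRNA is shown because its seed, bases 2 to 8, in capitals, is the stretch by which a microRNA mainly recognizes its targets. In the RefSeq table for GRCm38.p6 it lies on the plus strand at chr12:108658680-108658702, inside the gene Evl, and it is the only 1 of 1738 mature mouse entries with this seed.
mmu-miR-342-3p: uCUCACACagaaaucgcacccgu

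The control arrays resembled each other more than the miR-342-3p arrays did. Correlations across genes, which are not independent replicates, ranged from 0.9982 to 0.9986 among the control arrays and from 0.9909 to 0.9926 among the miR-342-3p arrays. The mean correlation with the control arrays was 0.996 for miR-342-3p replicate 3, against 0.986 and 0.987 for replicates 1 and 2, so that replicate 3 lay nearer to the controls. It was no farther from the other miR-342-3p arrays than they were from each other, with mean correlations within the group of 0.992, 0.991 and 0.992 for replicates 1, 2 and 3. All 8 macrophage markers examined lay above the median of all probe sets (a log2 value of 6.86) on every array, with a mean level of 11.04 to 11.07 in controls and 10.87 to 11.07 in miR-342-3p arrays. Single markers went both ways: Itgam was lower (log2 fold change -0.35, FDR = 0.064), Spi1 was higher (0.35, FDR = 0.044) and Ptprc, at -0.59, did not pass the test (FDR = 0.156). None of 4 measured T and B cell markers lay above that median on every array, with mean levels of 5.38 to 5.47 and 5.37 to 5.75, and 1 of 4 epithelial markers did (6.56 to 6.70 and 6.70 to 6.83). Of 5 fibroblast markers 3 did, with mean levels of 6.91 to 6.97 in controls and 7.05 to 7.37 in miR-342-3p arrays, and Pdgfra was higher (log2 fold change 0.49, FDR = 0.031). The part of these differences in the results below was not tested.

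Genes of cholesterol synthesis were lower after transfection of miR-342-3p along almost the whole pathway. Differences were tested with limma across all genes, and a gene was called at a Benjamini-Hochberg false discovery rate (FDR) under 0.1. Of the 26 measured genes, 16 (61.5%) were lower and 10 did not pass the test, so that none was called higher. Over all genes tested, 7.42% were lower and 4.14% were higher. Many of the genes tested had low values, whereas all 26 genes of the set passed a filter on low values. With that filter 19 of the 26 were lower and none higher, beside 17.3% lower and 10.5% higher of 11425 genes. The set was chosen with earlier results of these data known, so these shares describe it and were not tested. The 26 genes had a median log2 fold change of -0.41, whereas that of all genes tested was 0.069. At an unadjusted p under 0.05, 22 of the genes differed, beside 25.5% of all genes tested. In 21 of the 26 genes every miR-342-3p array lay below every control array, in 1 gene every one lay above, and in 4 genes the groups overlapped, beside 15.5% and 21.4% of all genes with their groups apart in these directions. The RNA of a whole culture was measured, so fewer cells expressing a gene and less RNA per cell cannot be told apart.

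**Figure D1:**
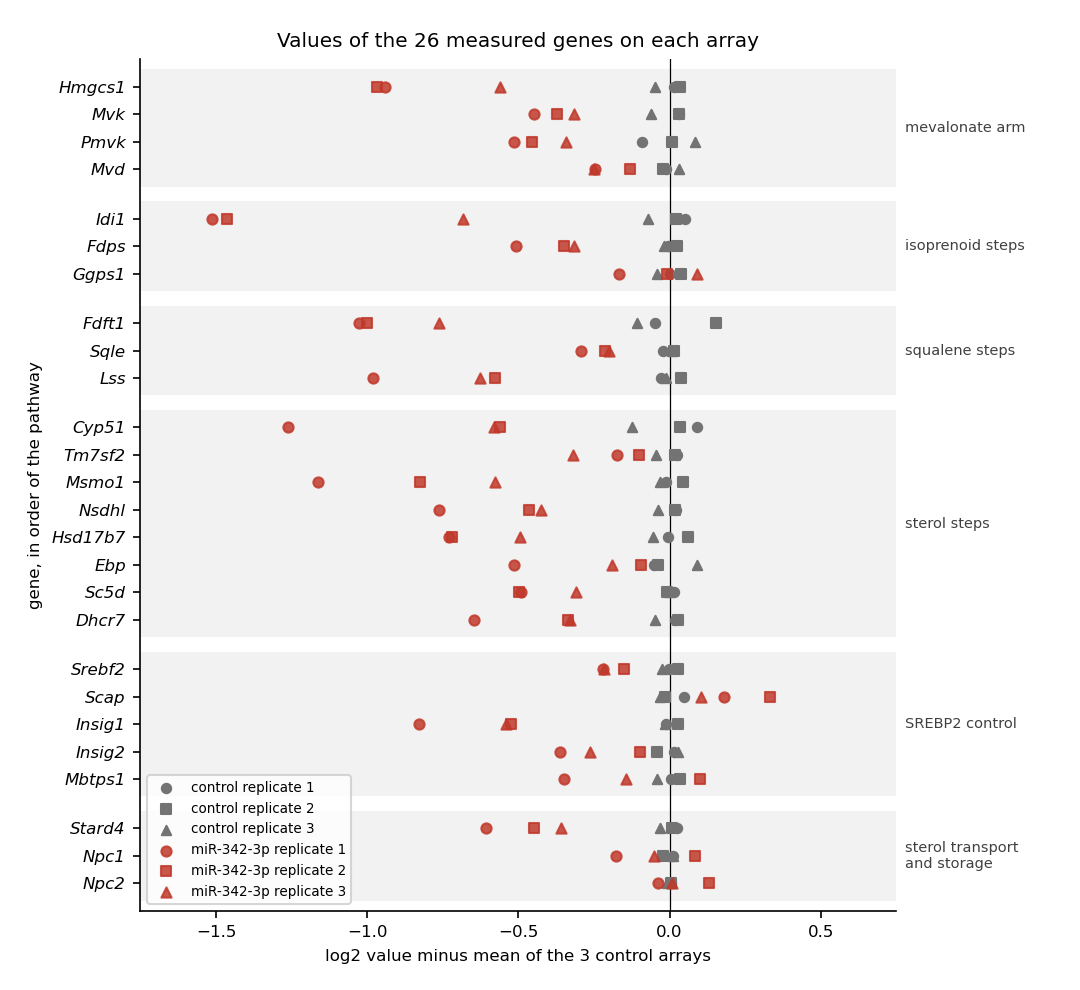
log2 value of each of the 26 measured genes on each array minus the mean of the 3 control arrays (x axis, log2 units), with genes in pathway order on the y axis. Grey symbols are control arrays and red symbols miR-342-3p arrays, with the shape giving the replicate. In 21 genes all red symbols lie to the left of all grey ones, and the circles of miR-342-3p replicate 1 lie farthest left of the red symbols in 21 genes.

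In the mevalonate arm, 3 of 4 measured genes were lower, with a median log2 fold change of -0.41. The largest difference was in Hmgcs1, the cytosolic HMG-CoA synthase that supplies the substrate of the rate-limiting reductase. Its log2 values were 10.12, 10.14 and 10.06 in control replicates 1 to 3 and 9.17, 9.14 and 9.55 in miR-342-3p replicates 1 to 3. The log2 fold change was -0.82 (standard error 0.113, FDR = 0.0119), which corresponds to 56.5% of the control level. The groups did not overlap, and replicate 3 was the highest of the miR-342-3p arrays. Mvk and Pmvk, the kinases that add phosphates to mevalonate, were also lower, at -0.38 (FDR = 0.0315) and -0.44 (FDR = 0.0268). Mvd, the decarboxylase that makes isopentenyl diphosphate, had values of 9.07 to 9.13 in controls and 8.84 to 8.96 in miR-342-3p arrays. These ranges did not overlap, but the log2 fold change of -0.21 did not pass the test (FDR = 0.130).

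Of the isoprenoid genes, Idi1 and Fdps were lower, and the branch enzyme Ggps1 did not pass the test. Idi1 encodes the isomerase that makes the second building block of all isoprenoids, and it had the lowest log2 fold change of the 26 genes. Its log2 values were 10.96, 10.93 and 10.83 in control replicates 1 to 3 and 9.39, 9.44 and 10.22 in miR-342-3p replicates 1 to 3. The log2 fold change was -1.22 (standard error 0.196, 95% interval -1.66 to -0.78, FDR = 0.0185), or 42.9% of the control level. All miR-342-3p arrays lay below the controls, with replicates 1 and 2 close together and replicate 3 clearly above them. Only 0.0652% of all genes tested had a log2 fold change at or below that of Idi1, and a second probe set of this gene gave -1.21. Fdps, the farnesyl diphosphate synthase whose product still serves both cholesterol and protein prenylation, had values of 11.45 to 11.50 in controls and 10.96 to 11.15 in miR-342-3p arrays, with a log2 fold change of -0.39 (FDR = 0.0324). Ggps1 encodes geranylgeranyl diphosphate synthase, which lies off the route to cholesterol. Its groups overlapped, with 7.93 to 8.02 in controls and 7.81 to 8.07 in miR-342-3p arrays, and its log2 fold change was -0.03 (95% interval -0.22 to 0.17, FDR = 0.846). Ggps1 was the only enzyme of the 18 measured whose groups overlapped.

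All 3 genes of the squalene steps were lower, with a median log2 fold change of -0.73. Fdft1 encodes squalene synthase, the first enzyme committed to sterols. Its log2 values were 11.32, 11.53 and 11.27 in control replicates 1 to 3 and 10.34, 10.37 and 10.61 in miR-342-3p replicates 1 to 3. The log2 fold change was -0.93 (standard error 0.104, 95% interval -1.17 to -0.69), or 52.5% of the control level, with the lowest FDR among the 26 genes (0.00723). A second probe set of Fdft1 gave a log2 fold change of -0.64. Lss, the lanosterol synthase that closes the sterol rings, was lower at -0.73 (FDR = 0.0162), with 9.66 to 9.73 in controls and 8.71 to 9.11 in miR-342-3p arrays. Sqle, the squalene epoxidase between them, was at -0.24 (standard error 0.0717, FDR = 0.0918), the smallest difference among the called genes. Its controls lay between 11.42 and 11.45 and its miR-342-3p arrays between 11.15 and 11.24, so the groups were apart. The call was lost in 8 of 15 alternatives, among them each control array left out (FDR from 0.277 to 0.305), miR-342-3p replicate 1 left out (0.108), median centering (0.120) and repeated quantile normalization (0.102).

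Of the 8 genes that turn lanosterol into cholesterol, 6 were lower and the other two, Tm7sf2 and Ebp, did not pass the test. Msmo1 and Cyp51, which encode the oxidases that remove methyl groups from lanosterol and its products, had the lowest log2 fold changes of this group. The log2 values of Msmo1 were 11.39, 11.45 and 11.37 in control replicates 1 to 3 and 10.24, 10.58 and 10.83 in miR-342-3p replicates 1 to 3. Its log2 fold change was -0.86 (standard error 0.135, FDR = 0.0173), or 55.3% of the control level. The groups were well apart, and replicate 1 was the lowest array. Cyp51 was at 9.42, 9.37 and 9.21 in the controls and at 8.07, 8.77 and 8.75 in miR-342-3p replicates 1 to 3. Its log2 fold change was -0.80 (standard error 0.175, FDR = 0.0392). Here replicate 1 lay far below the other two, and without it the log2 fold change was -0.57 (FDR = 0.031). The call was lost without each control array (FDR from 0.113 to 0.159).

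The dehydrogenase Nsdhl and the ketoreductase Hsd17b7 act with Msmo1 in the same demethylation. Both were lower, with log2 fold changes of -0.55 (FDR = 0.0246) and -0.65 (FDR = 0.0119). The desaturase Sc5d was at 10.78 to 10.81 in controls and 10.30 to 10.49 in miR-342-3p arrays, a log2 fold change of -0.43 (FDR = 0.0255). Dhcr7, the reductase of the last double bond to be removed on one route to cholesterol, was at -0.44 (FDR = 0.0442). Tm7sf2, a sterol reductase that shares its activity with the lamin B receptor, had a log2 fold change of -0.20 (FDR = 0.176). Ebp, the isomerase that shifts a double bond in the ring, had one of -0.27 (FDR = 0.187). In both genes all miR-342-3p arrays lay below all controls, and in Ebp replicate 1 (9.32) was well below replicates 2 and 3 (9.74 and 9.64).

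**Figure D2:**
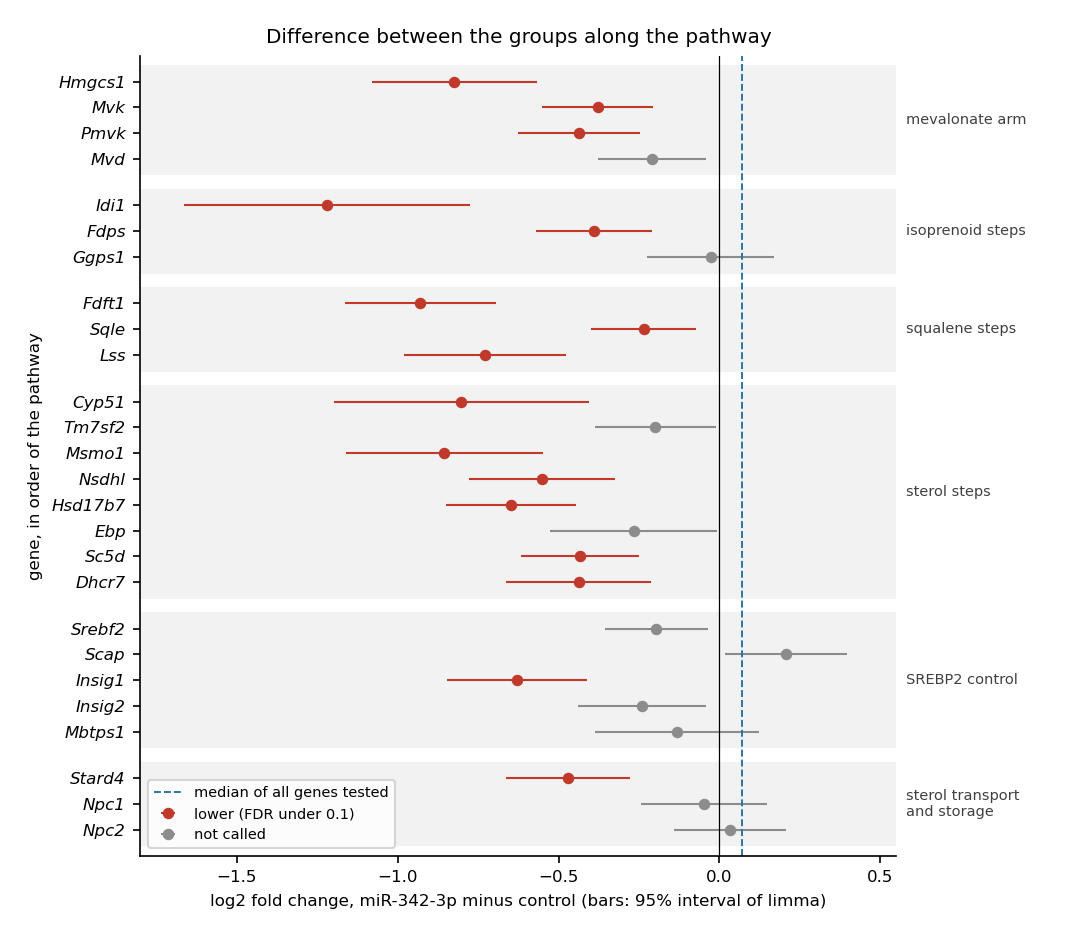
log2 fold change of each measured gene, miR-342-3p minus control (x axis), in pathway order, with 95% intervals from limma over 3 arrays per group. Red points passed an FDR under 0.1, grey points did not, and the dashed line is the median of all genes tested (0.069). All 18 enzymes lie below 0, and Scap and Npc2 are the 2 genes above it.

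Most of the calls were in the enzymes. Of 18 measured enzymes 14 were lower (77.8%, median log2 fold change -0.44), whereas of 5 measured genes of SREBP2 control 1 was lower (20%, median -0.20) and of 3 measured genes of sterol transport and storage 1 was lower (33.3%, median -0.05). Over all genes tested, 7.42% were lower, and 1 gene among 5 or 3 is too few to set apart from that share. The shares of the roles were not tested against each other. The lowest 5% of the log2 fold changes of all genes tested lay below -0.43, and 12 of the 26 genes were among them.

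**Figure D3:**
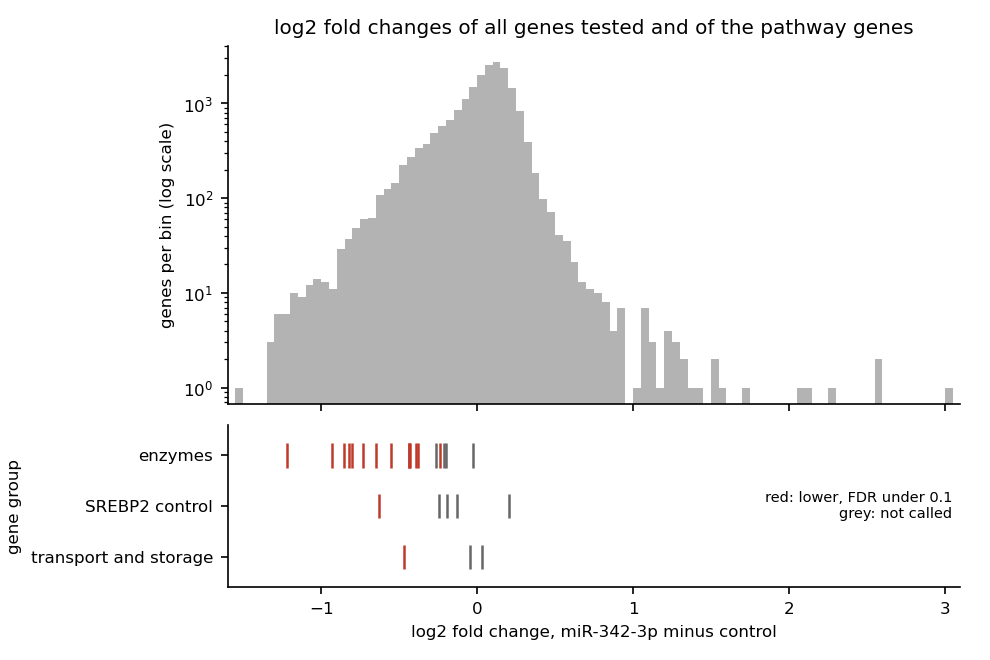
Histogram of the log2 fold changes of all 19938 genes tested (upper panel, x axis in log2 units, y axis genes per bin on a log scale) and, below it, 1 line for each measured pathway gene by role, red where the gene was lower at an FDR under 0.1 and grey where it was not called. The red lines lie in the left tail of the histogram, from -1.22 for Idi1 to -0.24 for Sqle.

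Srebf2, which encodes SREBP2 itself, did not pass the test. Its log2 values were 10.89, 10.92 and 10.87 in control replicates 1 to 3 and 10.67, 10.74 and 10.68 in miR-342-3p replicates 1 to 3. The log2 fold change was -0.20 (standard error 0.0708, 95% interval -0.36 to -0.04, FDR = 0.136), or 87.3% of the control level. All miR-342-3p arrays lay below all controls, but they did so by little. The difference passed the threshold without miR-342-3p replicate 2 (FDR = 0.0930), with the filter on low values (0.0736) and with the trend and robust prior (0.0621).

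Scap, which encodes the escort that moves SREBP2 to the Golgi, was the one gene of the set with all miR-342-3p arrays above all controls. Over all genes tested, 21.4% had their groups apart in this direction. It was at 9.46, 9.40 and 9.38 in the controls and at 9.60, 9.75 and 9.52 in miR-342-3p replicates 1 to 3. The log2 fold change of 0.21 (standard error 0.0837, 95% interval 0.02 to 0.40) did not pass the test (FDR = 0.169). It passed without miR-342-3p replicate 3 (0.26, FDR = 0.089) and when quantile normalization was repeated (0.27, FDR = 0.073).

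Insig1 and Insig2 encode the proteins that retain SREBP2 and SCAP in the endoplasmic reticulum, and Insig1 is itself a well-known SREBP target. The log2 values of Insig1 were 10.87, 10.91 and 10.87 in control replicates 1 to 3 and 10.05, 10.36 and 10.34 in miR-342-3p replicates 1 to 3. Its log2 fold change was -0.63 (standard error 0.0959, FDR = 0.0163), or 64.6% of the control level. The groups were apart by far more than the spread of the controls, and replicate 1 was the lowest. Insig2 was at 9.43, 9.37 and 9.44 in the controls and at 9.05, 9.31 and 9.15 in miR-342-3p replicates 1 to 3, and its log2 fold change of -0.24 (95% interval -0.44 to -0.04) did not pass the test (FDR = 0.136). Whether Insig1 and Insig2 differed in their response was not tested. Mbtps1, which encodes the protease of the first cut of SREBP2, overlapped between the groups, with 9.65 to 9.73 in controls and 9.34 to 9.79 in miR-342-3p arrays (log2 fold change -0.13, FDR = 0.452).

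Among the transport genes, Stard4 was lower, and Npc1 and Npc2 did not pass the test. Stard4 encodes a soluble carrier that moves sterol between membranes. Its log2 values were 9.01, 8.99 and 8.95 in control replicates 1 to 3 and 8.38, 8.54 and 8.63 in miR-342-3p replicates 1 to 3. The log2 fold change was -0.47 (standard error 0.0852, FDR = 0.0246), or 72.1% of the control level, with the groups apart. Npc1 and Npc2 encode the pair of proteins that hand cholesterol out of the lysosome. Npc1 had a log2 fold change of -0.05 (95% interval -0.24 to 0.15, FDR = 0.719) and Npc2 one of 0.03 (95% interval -0.14 to 0.21, FDR = 0.790). In both genes the groups overlapped, with miR-342-3p replicate 2 above all controls and replicate 1 below them.

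Of the miR-342-3p replicates, the first was lowest in most of these genes. Replicate 1 was the lowest of the 3 in 21 of the 26 genes (80.8%) and the highest in none, whereas it was the lowest in 29.5% of all genes tested. Replicate 3 was the highest in 14 genes, 13 of them enzymes, and replicate 2 in the other 12. Over all genes tested, replicates 1, 2 and 3 were the highest in 45.7%, 31.9% and 22.3%. The low rank of replicate 1 was not particular to the set. Of the 53 measured genes of the related lists described below, it was the lowest in 34 and the highest in 6. In the 26 genes the median change from the control mean was -0.51 in replicate 1, -0.36 in replicate 2 and -0.32 in replicate 3, beside 0.11, 0.036 and 0.025 over all genes tested. The replicate nearest to the controls across all genes therefore also had the smallest median change in this set, but its arrays lay below the control mean in all enzymes but Ggps1.

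The calls were read again without each array. Without control replicate 1, 2 or 3, in each case 7 of the 26 genes were lower, while 0.512%, 0.577% and 0.702% of all genes tested were. Without miR-342-3p replicates 1, 2 and 3, 15, 21 and 16 genes were lower, while 4.95%, 9.18% and 12.1% of all genes were. The 7 genes Hmgcs1, Idi1, Fdft1, Lss, Msmo1, Hsd17b7 and Insig1 were lower without each of the 6 arrays in turn, and the other 9 lost their call without any 1 of the control arrays. Without miR-342-3p replicate 2 the 5 added genes were Mvd, Tm7sf2, Ebp, Srebf2 and Insig2. At an FDR under 0.05, 15 genes were lower (all genes 3.32%), and at 0.01 or less only Fdft1 (all genes 0.0953%). Genes that were lower made up 64.2% of all calls over all genes, and this share was 77.2% after centering of the arrays on their medians and 43.9% after a repeated quantile normalization, with 15 genes of the set lower in both cases.

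**Figure D4:**
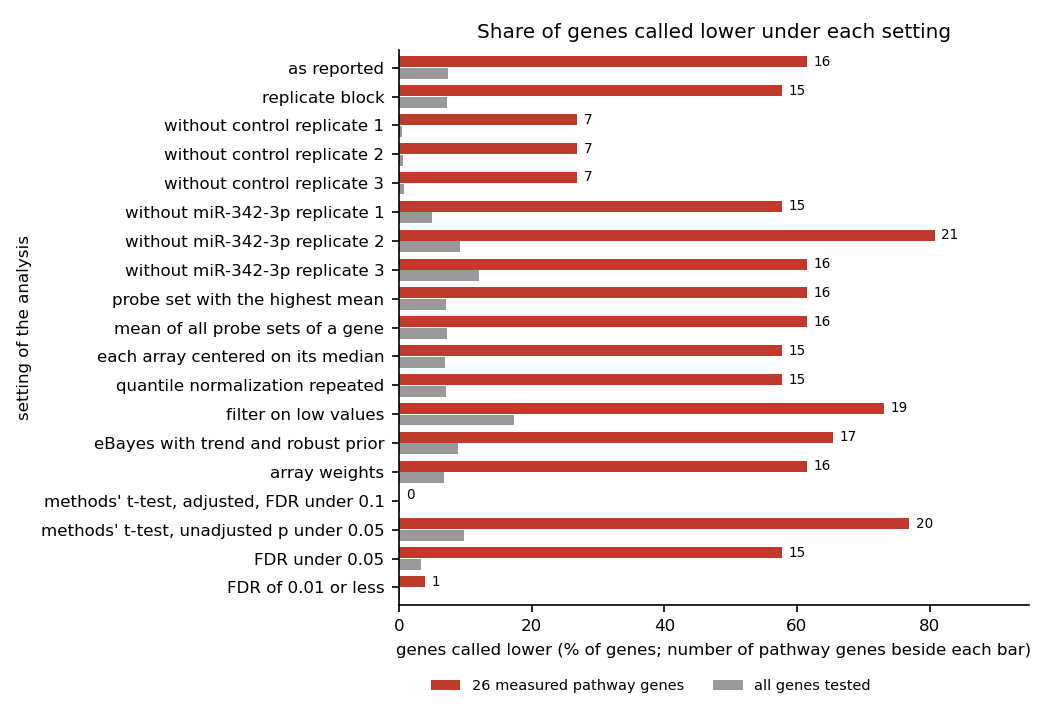
Share of genes called lower under each setting (x axis, % of genes), with red bars for the 26 measured pathway genes, the number beside each bar, and grey bars for all genes tested. The red bar is longer than the grey one under every setting except the t-test of the methods with adjustment, where it is at 0 (0.11% of all genes).

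The promoters of the set were read for letters that SREBP and its partners are known to bind. SREBP proteins bind sterol regulatory elements, usually beside a site of the CCAAT-binding factor NF-Y or of Sp1. The RefSeq promoter table (GRCm38.p6, 250 bases before the gene start and 50 from it on) held 30 promoters of 24 of the 29 genes, among 32851 promoters in all. It holds no entry for Fdps, Fdft1, Sqle, Stard4 and Npc1. Each motif was searched on both strands, and a match is a description of the letters and not a shown binding site. The sequences below hold the matches to the sterol regulatory element (Hmgcs1, Msmo1 and Srebf2) or belong to genes described above. These are the enzyme with the lowest fold change (Idi1), the called regulator (Insig1) and the gene with all miR-342-3p arrays above all controls (Scap). Each is written 5′ to 3′ on the strand of its gene and ends at the base before the gene start. Capitals mark matches to the short sterol regulatory element TCACNCCA or, where a further C follows, TCACNCCAC, and to the CCAAT box, which reads ATTGG on the opposite strand. The coordinates are chr13:119690101-119690350 (plus strand) for Hmgcs1, chr13:8885456-8885605 (plus) for Idi1, chr8:64733579-64733828 (minus) for Msmo1, chr5:28071162-28071411 (plus) for Insig1, chr15:82147019-82147268 (plus) for Srebf2 and chr9:110333138-110333287 (plus) for Scap.
Hmgcs1: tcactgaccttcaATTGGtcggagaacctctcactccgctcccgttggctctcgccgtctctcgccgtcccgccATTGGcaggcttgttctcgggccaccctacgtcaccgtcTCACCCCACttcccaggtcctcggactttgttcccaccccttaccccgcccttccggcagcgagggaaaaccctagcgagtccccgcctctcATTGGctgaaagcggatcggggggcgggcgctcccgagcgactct
Idi1: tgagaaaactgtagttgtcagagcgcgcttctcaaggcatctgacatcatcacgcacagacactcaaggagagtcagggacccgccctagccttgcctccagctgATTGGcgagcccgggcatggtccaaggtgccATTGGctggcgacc
Msmo1: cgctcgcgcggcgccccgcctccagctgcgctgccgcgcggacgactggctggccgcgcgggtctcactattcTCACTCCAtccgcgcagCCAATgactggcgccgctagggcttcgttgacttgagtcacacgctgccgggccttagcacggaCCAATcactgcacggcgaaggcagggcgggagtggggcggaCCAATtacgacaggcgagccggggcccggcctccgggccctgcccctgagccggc
Insig1: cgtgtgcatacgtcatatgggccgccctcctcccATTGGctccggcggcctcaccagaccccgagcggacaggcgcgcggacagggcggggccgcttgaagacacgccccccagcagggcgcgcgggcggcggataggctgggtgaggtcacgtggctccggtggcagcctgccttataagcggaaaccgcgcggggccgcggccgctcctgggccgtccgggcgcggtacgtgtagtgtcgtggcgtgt
Srebf2: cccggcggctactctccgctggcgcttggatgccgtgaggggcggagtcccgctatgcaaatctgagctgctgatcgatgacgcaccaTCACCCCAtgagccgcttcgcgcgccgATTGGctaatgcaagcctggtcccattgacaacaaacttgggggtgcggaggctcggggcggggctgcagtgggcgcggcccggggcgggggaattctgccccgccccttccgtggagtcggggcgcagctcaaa
Scap: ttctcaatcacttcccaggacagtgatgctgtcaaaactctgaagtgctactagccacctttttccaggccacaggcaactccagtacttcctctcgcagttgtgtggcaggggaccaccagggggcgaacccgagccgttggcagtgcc

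The CCAAT box was in 15 of the 16 enzyme genes with a promoter in the table. Over the whole set it was in a promoter of 20 of the 24 genes (83.3%) and in 20 of the 30 promoters (66.7%), against 37.4% of all promoters in the table. By gene, it was in 41.7% of the tested genes with a promoter and in 45.8% of those that were lower. All 12 genes of the set that were lower and had a promoter held it, as did 7 of 9 that were measured but not called. For this and the other motifs, a gene was counted where any of its listed promoters held a match. In Dhcr7 the CCAAT box was only in the most downstream of its listed promoters. The CCAAT box was not found in these windows of Acat2, Scap, Mbtps1 and Mbtps2. Hmgcs1 holds 3 CCAAT boxes in the stretch printed and Idi1 2, whereas the printed stretch of Scap has no capitals.

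The GC box GGGCGG was in 21 of the 24 genes (87.5%) and in 80% of their promoters, against 35.7% of all promoters. By gene, it was in 52.9% of the tested genes and 68.7% of those that were lower. The E-box CACGTG was in 5 genes (Hsd17b7, Sc5d, Dhcr7, Scap and Insig1), or 20.8%, against 9.5% of the tested genes and 13% of those that were lower. By promoter, it was in 20% of those of the set and 7.15% of all. The full sterol regulatory element TCACNCCAC was in Hmgcs1 alone, 137 bases before the start, or 4.17% of the 24 genes against 1.4% of the tested genes and 1.68% of those that were lower. Its short form TCACNCCA, which lies within the full one, was also in Msmo1 (177 bases before the start) and in Srebf2 (162 bases), or 12.5% of the genes against 4.6% of the tested genes and 5.11% of those that were lower. By promoter, the short form was in 10% of those of the set and 4.36% of all, and the full form in 3.33% and 1.24%. Most of the lower genes thus had no match to either form in this window, which says nothing about sites with other letters or farther away.

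**Figure D5:**
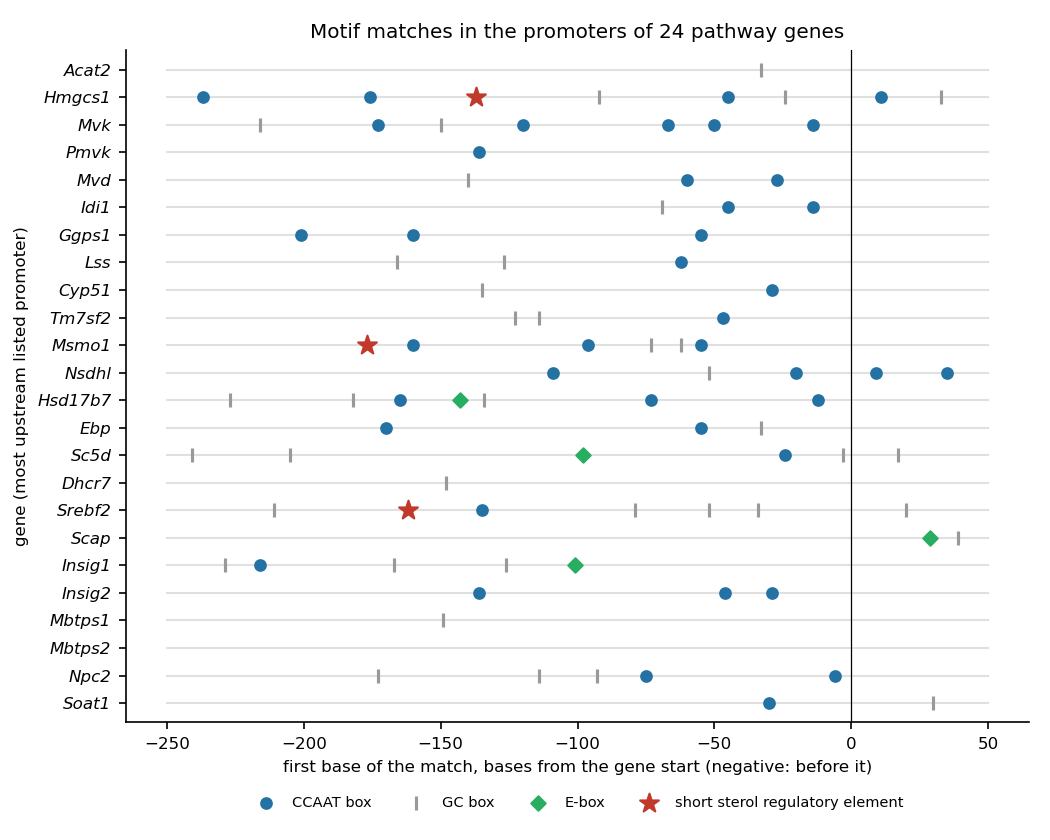
Matches to 4 motifs in the most upstream listed promoter of 24 pathway genes, by the distance of the first base of the match from the gene start (x axis, bases; negative values lie before the start). Blue circles are CCAAT boxes, grey bars GC boxes, green diamonds E-boxes and red stars the short sterol regulatory element, which is in Hmgcs1, Msmo1 and Srebf2. Further listed promoters are not drawn, so the CCAAT boxes and E-box of Dhcr7 and the GC boxes of Insig2 do not appear.

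Genes next to the pathway were called in both directions. Of 58 genes in 4 related lists, 53 were measured, 5 were lower (9.43%, all genes 7.42%) and 4 higher (7.55%, all genes 4.14%), with a median log2 fold change of 0.0059. Of 12 measured genes that use isoprenoids, for example in protein prenylation, 1 was lower, the prenylated-protein protease Zmpste24 (-0.35, FDR = 0.072). Of 18 measured partners of sterol sensing, degradation and transcription, 2 were lower and 2 higher. Nfyb, a subunit of the factor that binds the CCAAT box, was lower (-0.68, FDR = 0.021), with 7.17, 7.44 and 7.58 in miR-342-3p replicates 1 to 3 and 7.99 to 8.21 in controls. The other subunits Nfya (0.17, FDR = 0.185) and Nfyc (0.0025, FDR = 0.985) and the GC-box factor Sp1 (0.10, FDR = 0.386) did not pass the test. Of the coat genes for vesicles that leave the endoplasmic reticulum, Sar1b was lower (-0.29, FDR = 0.093), and Sec24d (0.59, FDR = 0.026) and Sec23a (0.30, FDR = 0.064) were higher.

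Of 12 further genes of sterol transport and storage, 1 was lower (8.33%, all genes 7.42%) and 2 were higher (16.7%, all genes 4.14%). The sterol carrier gene Scp2 was at -0.55 (FDR = 0.042), the endosomal sterol transporter gene Stard3 at 0.35 (FDR = 0.082) and Osbpl9 at 0.26 (FDR = 0.080). Of 11 genes of oxysterol and auxiliary enzymes, 1 was lower, Cyb5b, which encodes a cytochrome b5 of the outer mitochondrial membrane (-0.47, FDR = 0.052). The lamin B receptor gene Lbr, whose product shares the sterol reductase activity of Tm7sf2, had a log2 fold change of -0.095 (FDR = 0.439).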

How the data were processed

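Gene expression was measured in RAW264.7 cells 18 h after transfection with a miR-342-3p or a miR-negative control mimic, with 3 arrays per group taken from the sample titles. The authors used RMA, which adjusts the background, applies quantile normalization and summarizes the probes, and the deposited log2 values cover 35556 probe sets. The medians of the deposited arrays still differed by up to 0.15, from 6.80 in miR-342-3p replicate 2 to 6.95 in miR-342-3p replicate 1. The cause of this offset was not tested. The sources used here do not give the RMA version. RMA compresses small signals, so fold changes of dim genes may be understated, and the number of arrays limits the precision. Probe sets were named from the platform annotation, which can be old: 21789 had 1 gene, 1621 several and 12146 were not listed. Of those with 1 gene, 21698 were matched by Entrez ID to RefSeq, and 0 symbols changed. For 999 genes with several probe sets the one with the largest interquartile range over the arrays was taken.

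The linear model of limma 3.58.1 (R 4.3.3) with eBayes and no covariate was fitted to all 19938 genes, with Benjamini-Hochberg adjustment over all of them and an FDR under 0.1 as the threshold. The script was tested on simulated data in which both groups had equal spread. That did not test the calls under the wider spread of the miR-342-3p arrays seen here. Python 3.11.15 with pandas 2.3.3 searched the promoters, and figures were drawn with matplotlib 3.10.9. The members, the related lists, the markers and the motifs were chosen with earlier results of these data known, and no list was tested as a whole. All members are named, with values per array for the largest called changes of each role and for the SREBP2 regulators, as well as the called genes of the related lists. Cyp51, Scap and Nfyb were given per array, and Nfya, Nfyc, Sp1, Lbr, Pdgfra, Itgam, Spi1 and Ptprc named, after their values were seen. Alternatives were a replicate block, each array left out, 2 other probe set choices, 2 other scalings, a filter on low values, array weights, a prior with trend and robust estimation, 2 stricter thresholds and the methods' t-test.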

Additional observations from a re-analysis of the deposited data

How the results depend on the processing

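Leaving out 1 array at a time gave 7 to 21 lower and 0 to 1 higher genes of the set, and 102 to 2422 lower and 88 to 2104 higher genes in all. The lowest counts came without a control array. The counts of the set stayed at 15 to 19 lower under the replicate block, the other probe set choices and scalings, the filter, the trend and robust prior and array weights. In these settings except the filter, the share of all genes lower ran from 6.72% (array weights) to 8.84% (trend and robust prior). With the filter, which gave the 19, it was 17.3% of 11425 genes. Repeated quantile normalization gave 1 higher gene of the set (Scap) and 1817 higher genes in all, and median centering 408. The methods' t-test gave 0 lower genes of the set after adjustment, with 22 lower and 26 higher in all, and at an unadjusted p under 0.05 it gave 20 lower and 1 higher of the set, with 1955 lower (9.81%) and 2080 higher in all. An FDR under 0.05 left 661 lower and 312 higher genes in all, and 0.01 or less left 1 lower gene of the set, 19 lower and 33 higher in all. The sign turned in 3 genes that passed under none of these FDR tests: Ggps1 ranged from -0.087 to 0.042 with 1 array left out (above 0 without miR-342-3p replicate 1) and was at 0.020 with repeated quantile normalization and 0.035 with array weights, Npc1 ranged from -0.12 to 0.016 (above 0 without miR-342-3p replicate 1) and Npc2 from -0.016 to 0.068 (below 0 without miR-342-3p replicate 2). The causes were not tested. The labels do not say what a replicate number marks, and deviations of same-numbered arrays from their group means correlated at -0.31, -0.16 and -0.11, so the numbers were not taken to pair the arrays. With the replicate block 15 genes of the set were lower and none higher, with 1445 lower and 550 higher in all, and Sqle was no longer called (FDR = 0.221).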
